A study of Mus musculus with 40 samples.

Results

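Named markers of cortical layers were followed through 40 RNA-seq libraries of mouse cortex, to see whether their levels moved with head impact or with memantine and whether they varied between libraries with genes of neighbouring tissue. The members were every transcript of the deposited table that RefSeq (assembly GRCm38.p6, the mm10 build of the table) assigns to Cux1, Cux2, Rasgrf2, Etv1, Bcl11b, Tbr1 or Tle4. The rule found 9 transcripts, from all 7 of these genes, among 6831 transcripts of 5849 gene symbols. No measured value entered the rule, but the 7 genes and the marker lists used below were chosen with earlier results of these data known.

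The cerebral cortex is built in layers of neurons that send their axons to different targets, and each layer keeps the expression of a characteristic set of genes into adult life. Neurons of the upper layers connect cortical areas with each other, those of layer V project to the striatum, brainstem and spinal cord, and those of layer VI project mainly to the thalamus. Because the striatum, hippocampus and thalamus lie beneath the cortex, the same markers are commonly read beside markers of those regions to judge what a dissected piece contains.

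The libraries came from the cortex of male C57BL/6 mice aged 12 weeks. Each of 4 groups held 10 libraries: saline with sham handling (saline sham), saline with high-frequency head impact (saline HF-HI), memantine with sham handling (memantine sham) and memantine with head impact (memantine HF-HI). Memantine is a blocker of NMDA-type glutamate receptors, and each session followed drug or saline by 1 h, with tissue taken 24 h after the final session. The labels name the tissue as cortex with no subregion and do not tie a library to one animal, so p-values measure only the spread between these libraries.

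The deposited log2 values were converted back to read counts divided by the size factor of the library, called normalised read counts below. The reads summed over the table ranged from 13322404 to 17529644 per library. Counts were not divided by transcript length, so levels were compared between libraries, and counts of different genes set side by side are not their relative expression. Of the markers of cortical excitatory neurons, 7 of 8 were in the table, and those with the highest counts, Camk2a and Slc17a7, had medians of 26805 and 10542 normalised counts. Among the genes with the highest counts in the other lists were Pde10a and Pde1b for striatum (10553 and 5838), Adarb1 and Rora for thalamus (4788 and 4527), C1ql3 and Nr3c2 for hippocampus (2688 and 1064), Mbp for oligodendrocytes (24816), Slc1a2 and Aldoc for astrocytes (91642 and 10144), Csf1r for microglia (1556) and Gad1 and Gad2 for interneurons (7102 and 4306). Several of them, such as Pde1b, Adarb1, Rora and Nr3c2, are also expressed by cortical cells. Striatal markers were also present, 11 of 16 symbols with the 15 transcripts summing to between 34045 and 60451 normalised counts per library, although Drd2, Adora2a, Tac1, Rarb and Meis2 were not in the table. The other lists had 5 of 14 symbols for thalamus, 2 of 11 for hippocampus, 9 of 10 for oligodendrocytes, 7 of 8 for astrocytes, 5 of 9 for microglia, 6 of 9 for interneurons and 1 of 5 for choroid plexus. That single choroid plexus gene, Ttr, ranged from 74.5 to 22031 normalised counts between libraries, with a median of 436.2. No transcript of the table had a mean over the 40 libraries under 549.2 normalised counts. Genes of lower counts could therefore be missing, and absence from the table does not show that a gene was unexpressed.

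Cux1 and Bcl11b were each represented by a pair of transcripts, and the exons that separate them are shown here because the division of reads between them bears on several values below. Bcl11b, also called Ctip2, lies on mouse chromosome 12 (chr12:107910403-108003602, minus strand, mm10). In GENCODE M21, the counterpart of NM_001079883 holds a coding exon of 216 bases, exon 3 of 4 at chr12:107965672-107965887, which the counterpart of NM_021399 skips. The transcript sequence is given 5′ to 3′ with the alternative exon in capitals and 30 bases of the flanking exons on either side in lower case.
Bcl11b NM_001079883: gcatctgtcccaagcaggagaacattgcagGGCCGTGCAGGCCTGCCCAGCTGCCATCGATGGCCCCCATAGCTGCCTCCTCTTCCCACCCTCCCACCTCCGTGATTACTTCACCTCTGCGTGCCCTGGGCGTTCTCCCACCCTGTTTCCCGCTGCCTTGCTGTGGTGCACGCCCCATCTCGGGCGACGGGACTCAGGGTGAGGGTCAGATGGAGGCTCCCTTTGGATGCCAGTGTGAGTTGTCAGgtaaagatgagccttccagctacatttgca
Bcl11b NM_021399: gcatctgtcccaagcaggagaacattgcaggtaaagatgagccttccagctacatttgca
In Cux1 (chr5:136248135-136567490, minus strand), NM_001291233 holds a coding exon of 66 bases, exon 16 of 24 at chr5:136311495-136311560, that NM_001291234 skips.
Cux1 NM_001291233: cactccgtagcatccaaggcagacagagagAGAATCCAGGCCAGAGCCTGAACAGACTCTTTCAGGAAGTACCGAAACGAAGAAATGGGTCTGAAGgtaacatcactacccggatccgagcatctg
Cux1 NM_001291234: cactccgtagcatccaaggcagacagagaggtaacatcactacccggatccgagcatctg
Both exons have a length divisible by 3, so that skipping them keeps the reading frame. The Cux1 transcripts differ in 4 of the 24 exons of the first in all, and those of Bcl11b also differ in their annotated ends. RefSeq lists 7 curated transcripts of Cux1 and 3 of Bcl11b, of which 2 each were in the table.

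The members differed widely in how steady they were between libraries of one group. Rasgrf2, a guanine nucleotide exchange factor for Ras and Rac that marks upper layer neurons (NM_009027, chr13:91880400-92131656, minus strand), had a coefficient of variation within groups of 6.22%, below the median of all transcripts (7.92%). Tbr1, a T-box transcription factor of layer VI neurons (NM_009322, chr2:61802930-61814114, plus strand), had 12.4%, and Etv1, an ETS transcription factor of layer V neurons (NM_007960, chr12:38779380-38870484, plus strand), had 16.6%. Tle4, a Groucho-type corepressor of layer VI neurons (NM_011600, chr19:14448150-14598051, minus strand), had 32.7%. Counting error alone would give between 1.69% for Rasgrf2 and 4.22% for Bcl11b NM_001079883, so the spread of each member exceeded it.

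For Bcl11b, a zinc finger transcription factor of layer V neurons that is also strongly expressed in the projection neurons of the striatum, the coefficient of variation within groups was 15.7% for NM_021399 and 40.8% for NM_001079883. The sum of both varied by 12.1%, less than either. Across the 40 libraries with group means removed, the log2 counts of the pair ran in opposite directions (Pearson r = -0.43, permutation p = 0.0111; Spearman rho = -0.34, p = 0.0397). With the 2 libraries farthest from the median of NM_001079883 left out, r was -0.36. This test was chosen after the values were seen, and its adjusted p over 4 such tests was 0.0332. Both transcripts hold the flanking exons shown above, and the part of read assignment in the opposite movement was not tested.

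**Figure D1:**
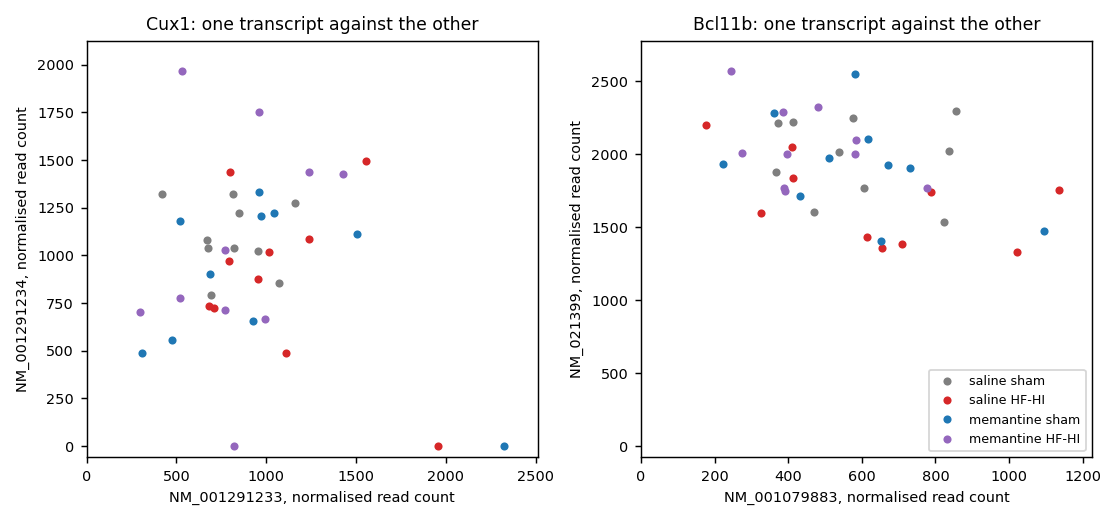
Normalised read counts of the pair of Cux1 transcripts (left) and of the pair of Bcl11b transcripts (right), 1 point per library, coloured by group. In Cux1, 3 libraries sit at 0 on the vertical axis, while in Bcl11b none is at 0 and the 3 libraries with the highest NM_001079883 counts (1020 to 1134) have NM_021399 counts of 1331 to 1758.

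Cux1 and Cux2, homeodomain transcription factors of upper layer neurons, were the members with values listed at 0. Cux1 NM_001291234 was listed at 0 in saline HF-HI replicate 7, memantine sham replicate 9 and memantine HF-HI replicate 9, and its next lowest value was 486.8 normalised counts. In the first pair of these libraries, NM_001291233 stood at 1958 and 2326, the second highest and the highest of all 40 libraries, and in memantine HF-HI replicate 9 it stood at 820.6. Cux2 (NM_001312908, chr5:121856366-122050102, minus strand), for which RefSeq lists 2 curated transcripts and the table holds 1, was listed at 0 in saline sham replicates 4 and 9 and in memantine HF-HI replicate 7. Its next lowest value was 404.7. At least 1 value of 0 was listed for 106 of the 6831 transcripts, and 105 of them belong to genes with more than 1 curated RefSeq transcript, against 57.9% of all transcripts. A value of 0 can be a failed estimate of how reads divide between transcripts, so no mean is given for these and their medians are used.

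**Figure D2:**
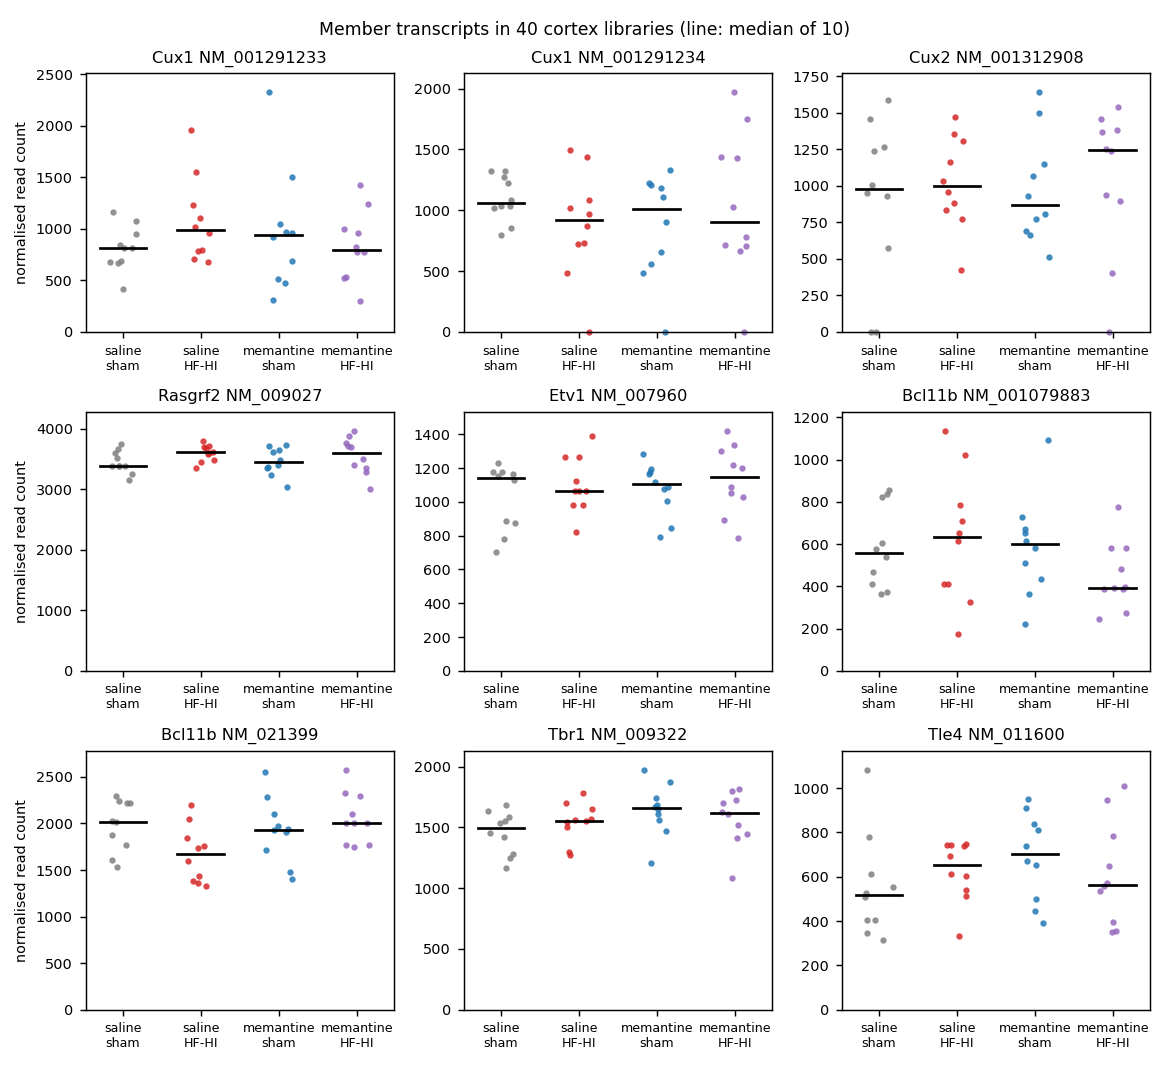
Normalised read counts of the 9 member transcripts in 40 libraries, 1 point per library and 10 per group, with the group median as a line and every axis starting at 0. The groups overlap in every panel, and the 6 points at 0 belong to Cux1 NM_001291234 and Cux2.

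The upper layer members are described first. Cux2 had a median of 978.4 normalised counts in saline sham (0 to 1588), 996.8 for saline HF-HI (424.1 to 1472), 869.0 for memantine sham (511.1 to 1640) and 1244 for memantine HF-HI (0 to 1537). Among libraries above 0, the medians were 1121, 996.8, 869.0 and 1250 in the same order. The ranges covered each other, and the order of the saline groups depended on whether the libraries at 0 were counted.

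Cux1 NM_001291233 had a median of 816.2 for saline sham (421.0 to 1163), 985.5 for saline HF-HI (679.9 to 1958), 942.4 for memantine sham (307.3 to 2326) and 796.4 for memantine HF-HI (299.3 to 1426). NM_001291234 had a median of 1061 for saline sham (793.1 to 1324), 922.3 for saline HF-HI (0 to 1498), 1008 for memantine sham (0 to 1332) and 901.7 for memantine HF-HI (0 to 1969). The pair took near equal parts of the gene, with a median share for NM_001291233 of 46.2% and a range from 21.3% to 100% of the summed count. Without the 6 libraries that list a member at 0, the pair rose and fell together over 34 libraries (r = 0.45, permutation p = 0.0166, adjusted p = 0.0332; rho = 0.42, p = 0.0267), and r was 0.27 with the 2 farthest libraries left out. Over all 40 libraries r was -0.34 (permutation p = 0.0593) and rho was 0.01 (p = 0.923), so the sign turned on the libraries that list a member at 0.

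Rasgrf2 lay between 3152 and 3745 for saline sham (median 3387), between 3355 and 3793 for saline HF-HI (3611), between 3041 and 3725 for memantine sham (3443) and between 2999 and 3957 for memantine HF-HI (3601). The means were 3447 ± 184 and 3599 ± 136 in the saline groups and 3457 ± 222 and 3556 ± 299 in the memantine groups, sham before HF-HI (SD, n = 10 each). Both impact groups thus stood above their sham group by less than the SD of the latter.

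Among the layer V members, Etv1 had a median of 1143 for saline sham (702.5 to 1228), 1067 for saline HF-HI (822.2 to 1391), 1103 for memantine sham (794.9 to 1287) and 1146 for memantine HF-HI (785.4 to 1418). The 4 means fell between 1027 and 1133, closer together than the SD of any group, the smallest of which was 154.3.

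Bcl11b NM_021399 had a median of 2019 for saline sham (1533 to 2297), 1667 for saline HF-HI (1331 to 2202), 1930.5 for memantine sham (1404 to 2553) and 2007 for memantine HF-HI (1745 to 2573). Saline HF-HI was therefore lowest and the other medians lay close together, although its upper libraries reached into the range of all other groups. For NM_001079883 the medians were 557.2 (365.4 to 855.3), 634.1 (175.4 to 1134), 599.5 (223.1 to 1094) and 393.4 (243.3 to 777.0) in the same order, so that memantine HF-HI was lowest there. The share of NM_021399 in the gene averaged 77.3% ± 6.55 for saline sham, 73.0% ± 11.5 for saline HF-HI, 76.6% ± 9.24 for memantine sham and 82.0% ± 6.05 for memantine HF-HI (SD, n = 10 each).

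Of the layer VI members, Tbr1 had a median of 1498 for saline sham (1166 to 1684), 1556 for saline HF-HI (1275 to 1783), 1658 for memantine sham (1206 to 1972) and 1619 for memantine HF-HI (1087 to 1814). Replicate 1 of memantine HF-HI, at 1087, was the lowest of all libraries for Tbr1, and with 2999 it was also the lowest for Rasgrf2. Tle4 had a median of 516.7 for saline sham (315.1 to 1081), 653.8 for saline HF-HI (332.0 to 746.2), 704.0 for memantine sham (391.2 to 949.2) and 564.1 for memantine HF-HI (350.4 to 1010.5). The Tle4 ranges of all groups overlapped over most of their length.

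The first comparison asked whether head impact without the drug moved the layer genes. In saline HF-HI versus saline sham, 1 of the 9 member transcripts had an unadjusted limma p under 0.05, beside 9.53% of all transcripts (651 of 6831), and 0 had an adjusted p under 0.1, beside 0.205% of all transcripts. That transcript was Bcl11b NM_021399, which went from 1981 ± 275 to 1669 ± 303 normalised counts (SD, n = 10 each). On the deposited log2 scale, which compresses changes at these counts, the change was -0.13 (SE 0.05, unadjusted limma p = 0.0186, adjusted p = 0.428), and on log2 counts it was -0.25. NM_001079883 differed by 0.01 (SE 0.08, p = 0.887), and the log2 ratio of the pair was not shown to differ between the groups (-0.23, permutation p = 0.526, adjusted p over 4 comparisons 0.701).

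Summed over both transcripts, Bcl11b went from 2566 ± 320 to 2294 ± 293 normalised counts. It was the 1 member gene of 7 with an unadjusted p under 0.05 (log2 change -0.16, SE 0.08, limma p = 0.0386, adjusted p = 0.431), beside 10.7% of all genes. This call was lost when any of saline sham replicates 2, 3, 5 or 10 or saline HF-HI replicates 2, 3, 9 or 10 was left out, with p up to 0.0958, and the log2 change then lay between -0.20 and -0.13 over all 40 such fits. The call of NM_021399 held in each of those 40 fits.

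Striatal markers were also lower in saline HF-HI. Of the 15 striatal transcripts, from 11 genes, 8 were lower and 0 higher at an unadjusted p under 0.05. Among all 6831 transcripts, 9.53% passed, 338 of them lower and 313 higher. The median log2 change of the striatal list was -0.12, against a median over the members of 0.04. The summed level of the striatal transcripts had a mean of 49622 ± 6622 for saline sham and 42925 ± 3769 for saline HF-HI (SD, n = 10 each), with ranges of 36200 to 59321 and 36375 to 50613. Interneuron markers also differed in this comparison, with 4 of 7 transcripts lower (Reln NM_001310464, Gad2, Sst and Slc32a1), 1 higher (Pvalb) and a median log2 change of -0.07. Their part in the Bcl11b difference was not tested, nor was whether they moved apart from the striatal markers. With the mean of the striatal markers as a covariate, the log2 change of summed Bcl11b was -0.01 (p = 0.832) and that of NM_021399 was -0.06 (p = 0.209), and no member transcript or gene kept an unadjusted p under 0.05 in this comparison. Group means were not removed from this covariate, so it carried the difference between the groups in striatal markers. The fit therefore cannot separate a change of Bcl11b with impact from that difference. In bulk tissue, fewer cells of a type and less RNA per cell cannot be told apart.

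The remaining members differed in saline HF-HI by amounts whose intervals included 0. On the deposited scale the change was 0.04 for Rasgrf2 (95% interval -0.01 to 0.09), 0.04 for Etv1 (-0.04 to 0.13), 0.04 for Tbr1 (-0.04 to 0.12) and 0.07 for Tle4 (-0.06 to 0.20). The intervals of Cux1 and Cux2 were wider, from -0.05 to 0.35 for NM_001291233, -0.53 to 0.13 for NM_001291234 and -0.14 to 0.53 for Cux2, and the last pair includes the libraries at 0.

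**Figure D3:**
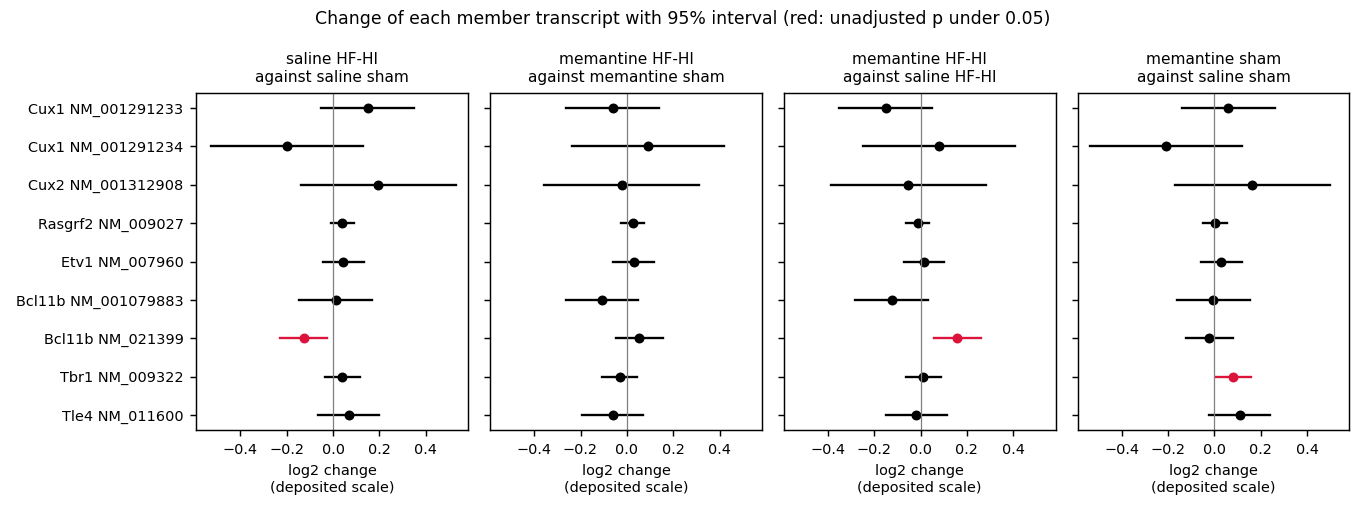
Log2 change on the deposited scale of each member transcript in 4 comparisons, with its 95% interval as a line. The intervals that leave out 0, drawn in red, are those of Bcl11b NM_021399 in both comparisons with saline HF-HI and of Tbr1 for memantine sham versus saline sham.

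The second comparison was the same impact in mice given memantine. In memantine HF-HI versus memantine sham, 0 of 9 member transcripts had an unadjusted limma p under 0.05, beside 4.61% of all transcripts, and 0 had an adjusted p under 0.1, beside 0.0146%. No member gene passed at an unadjusted p under 0.05 either, beside 4.37% of all genes. Bcl11b NM_021399 stood at 1928 ± 346 and 2059 ± 271, a log2 change of 0.05 (95% interval -0.05 to 0.15). Tbr1 stood at 1643 ± 211 and 1574 ± 219, a change of -0.03 (-0.11 to 0.05). Striatal markers gave 0 calls of 15 in either direction here.

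Whether the impact effect differed between saline and memantine was tested as an interaction. At an unadjusted p under 0.05, 1 of 9 member transcripts passed, beside 3.73% of all transcripts, and at an adjusted p under 0.1 there were 0, beside 0% of all transcripts. The transcript was again Bcl11b NM_021399, with an interaction of 0.18 on the deposited scale (SE 0.07, limma p = 0.0185, adjusted p = 0.999). Of the member genes, 0 of 7 passed, beside 3.59% of all genes, and summed Bcl11b had an interaction of 0.16 (SE 0.11, limma p = 0.137).

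Memantine was then compared with saline among the impacted mice. In memantine HF-HI versus saline HF-HI, 1 of 9 member transcripts passed at an unadjusted p under 0.05, beside 3.91% of all transcripts, and 0 passed at an adjusted p under 0.1, beside 0%. Bcl11b NM_021399 was higher under memantine, 2059 ± 271 against 1669 ± 303 normalised counts, a change of 0.16 in deposited log2 units (SE 0.05, limma p = 0.00429, adjusted p = 1) and of 0.31 in counts. This comparison shares the saline HF-HI libraries with the first one. NM_001079883 lay at 450.6 ± 160 against 624.4 ± 304 (log2 change -0.12, p = 0.129), and the log2 ratio of the pair differed by 0.68 (permutation p = 0.0838, adjusted p = 0.32). Summed Bcl11b was at 2509 ± 252 against 2294 ± 293 (log2 change 0.13, limma p = 0.0863), so that 0 of 7 member genes passed, beside 3.68% of all genes. Striatal transcripts were higher in 2 of 15 and lower in 0, and their summed mean was 47982 ± 5943 for memantine HF-HI. With the striatal covariate, NM_021399 was at 0.11 (p = 0.0283), and NM_001079883 also passed, at a log2 change of -0.18 (p = 0.0348).

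The last comparison was memantine without impact. In memantine sham versus saline sham, 1 of 9 member transcripts had an unadjusted p under 0.05, beside 7.51% of all transcripts, and 0 had an adjusted p under 0.1, beside 0.0293%. Tbr1 was higher under memantine, 1643 ± 211 against 1457 ± 174 normalised counts (SD, n = 10 each), a change of 0.08 in deposited log2 units (SE 0.04, limma p = 0.0403, adjusted p = 0.641) and 0.17 in counts. Tbr1 was also the 1 member gene of 7 that passed in this comparison, beside 7.90% of all genes (limma p = 0.0432). The transcript call was lost without any one of saline sham replicates 4, 6, 8 or 10 or memantine sham replicates 2, 4, 5, 7, 8 or 10, where p reached 0.0939, and the gene call also without saline sham replicate 2, with p up to 0.102. Tle4, the other layer VI member, stood at 690.4 ± 195 against 552.9 ± 231, a change of 0.11 with an interval from -0.02 to 0.24 (limma p = 0.108), and it passed without saline sham replicate 6 (0.15, p = 0.0228) or memantine sham replicate 10 (0.14, p = 0.0496).

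Over the 9 members, the median log2 change on the deposited scale was 0.04 in the first comparison, -0.02 in the second, -0.01 between the impacted groups, 0.03 between the sham groups and -0.07 in the interaction. The same median over all transcripts lay within 0.01 of 0 each time.

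The other genes of cortical layers were read in the same fits. Of 59 further symbols listed for upper layers, layer V, layer VI with subplate and all cortical excitatory neurons, 27 were in the table, with 36 transcripts. In saline HF-HI versus saline sham, 6 of the 36 were higher and 2 lower at an unadjusted p under 0.05 (22.2%, beside the 9.53% of all transcripts), with a median log2 change of -0.01. In memantine sham versus saline sham, 6 were higher and 4 lower (27.8%, beside 7.51%), with a median of 0.01. These comparisons share the saline sham libraries. In memantine HF-HI versus memantine sham there were 0 calls (0%, beside 4.61% of all transcripts) and in memantine HF-HI versus saline HF-HI there was 1 lower (2.78%, beside 3.91%). In the interaction 1 was higher and 3 lower (11.1%, beside 3.73%).

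By gene, the POU-domain factors of upper layers Pou3f3 and Pou3f2 and the mTOR-binding protein Deptor, listed for layer V, were lowest in saline sham. Pou3f3 (NM_008900) stood at 1184 ± 97.4 there, against 1311 ± 79.6 for saline HF-HI, 1299 ± 76.8 for memantine sham and 1288 ± 104 for memantine HF-HI (SD, n = 10 each). Deptor (NM_145470) stood at 904.8 ± 84.2, against 1016 ± 83.8, 1016 ± 61.6 and 1024 ± 85.1 in the same order. Pou3f2 (NM_008899) went from 1078 ± 103 to 1159 ± 69.0, 1200 ± 49.6 and 1179 ± 91.5. The calcium-binding protein Calb1 (NM_009788) was highest in saline sham, at 2325 ± 125 against 2172 ± 147, 2101 ± 155 and 2181 ± 188. The unadjusted limma p of each of these 4 transcripts was under 0.05 for saline HF-HI versus saline sham, in memantine sham versus saline sham and in the interaction, and every adjusted p was 0.25 or higher.

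Other layer genes passed in single comparisons. In saline HF-HI versus saline sham the neurogenic factor Neurod6 (NM_009717) was higher, 757.3 ± 111 against 654.5 ± 108 (limma p = 0.0259), and the calmodulin-binding protein Pcp4 (NM_008791), which striatal neurons also express, was lower, 2989 ± 363 against 3341 ± 289 (limma p = 0.0279). In memantine sham versus saline sham, Hs3st4 (NM_001252072), a heparan sulphate sulphotransferase of layer VI, was lower, 960.3 ± 84.9 against 1034 ± 60.4 (limma p = 0.0115). Of the 5 transcripts listed for layer VI and subplate, 1 was lower and 1 higher in that comparison, with a median log2 change of 0.02. In memantine HF-HI versus saline HF-HI, Lamp5 (NM_029530), a lysosome-associated membrane protein of upper layers, was lower, 1831 ± 146 against 2036 ± 190 (limma p = 0.0162).

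Whether the layer genes rose and fell together between libraries was asked next, as a check of the dissection. Over the 40 libraries, with log2 summed counts and group means removed, 1 of 21 pairs of member genes had an adjusted permutation p under 0.05. Rasgrf2 and Tbr1, markers of upper and deep layers, were correlated at r = 0.51 (permutation p = 0.00214, adjusted p = 0.0449) and rho = 0.49 (p = 0.00269, adjusted p = 0.0565). With the 2 libraries farthest from the Rasgrf2 median left out, r was 0.37 (p = 0.0231), and within groups it was -0.20 for saline sham, 0.81 for saline HF-HI, 0.50 for memantine sham and 0.79 for memantine HF-HI. The other 20 pairs lay between -0.24 and 0.18. Members that mark the same layers were among them, with r = -0.01 for Cux1 and Cux2, -0.03 for Etv1 and Bcl11b and -0.08 for Tbr1 and Tle4. Without the 6 libraries that list a member at 0, these values were 0.31 (permutation p = 0.0977), -0.05 and -0.04. The value of Cux1 and Cux2 thus depended on the libraries at 0. The counts of Etv1 and Tle4 rested on 1 transcript each, of the 3 and 4 curated transcripts that RefSeq lists.

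The members were then set against the mean of each marker list, 63 pairs in all, of which 7 had an adjusted permutation p under 0.05 by Pearson's r and 8 by Spearman's rho, with 6 in common. The pair that passed by r alone was Tbr1 with thalamus, and those that passed by rho alone were Tbr1 with interneurons (rho = -0.43, permutation p = 0.00442, adjusted p = 0.0398; r = -0.32, adjusted p = 0.249; r between -0.67 and -0.19 within groups) and Bcl11b with astrocytes (rho = -0.44, permutation p = 0.00619, adjusted p = 0.0487; r = -0.40, adjusted p = 0.101; r between -0.46 and -0.33 within groups). With the 2 farthest libraries left out, r was -0.28 and -0.31 for these pairs. Tbr1 followed the cortical excitatory neuron list (r = 0.84, permutation p = 1e-05, adjusted p = 0.000315; rho = 0.80, p = 1e-05), where 1e-05 is the smallest p that the resamples can give. Within groups r was 0.67 for saline sham, 0.80 for saline HF-HI, 0.87 for memantine sham and 0.95 for memantine HF-HI, and r was 0.78 with the 2 farthest libraries left out. All 8 transcripts of the list were positively correlated with Tbr1, with a median r of 0.75 and the lowest, 0.26, for Camk2a NM_001286809. Rasgrf2 followed the same list at r = 0.61 (permutation p = 0.00021, adjusted p = 0.00441; rho = 0.55, p = 0.0006) and at 0.53 with the 2 farthest libraries left out, with within-group values of 0.22, 0.79, 0.46 and 0.80 in the order above.

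Bcl11b followed the striatal list. Its summed counts correlated with the striatal mean at r = 0.80 (permutation p = 1e-05, adjusted p = 0.000315; rho = 0.78, p = 1e-05) and with the cortical excitatory mean at 0.06 (p = 0.731). With the interneuron mean, r was 0.38 (permutation p = 0.0215, adjusted p = 0.143). It was 0.30 (permutation p = 0.0905) without the 2 libraries farthest from the Bcl11b median. In memantine sham replicate 8, the library lowest in Bcl11b in its group, the interneuron mean stood at -1.33 log2 units from the group mean. The striatal correlation was 0.77 with the 2 farthest libraries left out and lay between 0.75 and 0.86 in the 4 groups taken alone. All 15 striatal transcripts were positively correlated with Bcl11b, from 0.22 to 0.79, with Ppp1r1b (the dopamine signalling phosphoprotein DARPP-32) and Penk (proenkephalin) at 0.79 and 0.78. The transcripts of Pde10a (0.22, 0.31 and 0.42) and Drd1 (0.23 and 0.32) had the lowest values. In saline sham, the library lowest in Bcl11b (replicate 8, 2076 normalised counts) had a striatal sum of 36200 and the library highest in it (replicate 5, 3152) one of 55369. Taken singly, NM_021399 and NM_001079883 correlated with the striatal mean at 0.50 and 0.32, below their sum.

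**Figure D4:**
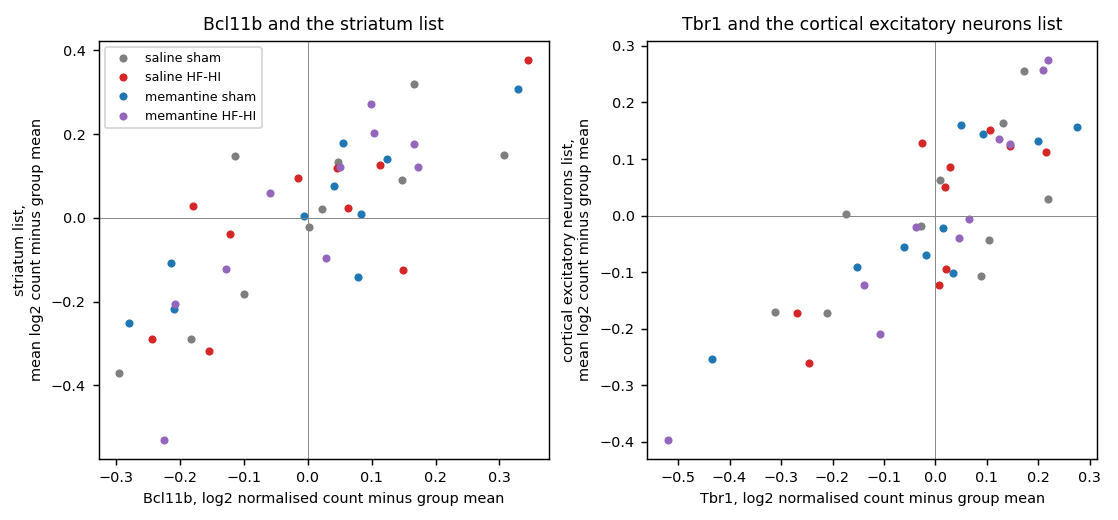
Left, summed Bcl11b (horizontal) and the mean of the 15 striatal transcripts (vertical), and right, Tbr1 and the mean of the 8 cortical excitatory transcripts, all as log2 normalised counts minus the group mean, 1 point per library coloured by group. Points rise along both panels (r of 0.80 and 0.84), and the lowest Tbr1 point is memantine HF-HI replicate 1.

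Bcl11b and Tbr1 shared a negative relation with the thalamic list. Bcl11b had r = -0.51 (permutation p = 0.00162, adjusted p = 0.0192; rho = -0.50, p = 0.00209), which was -0.58 with the 2 farthest libraries left out and between -0.71 and -0.17 within groups. Tbr1 had r = -0.51 (permutation p = 0.001, adjusted p = 0.0157; rho = -0.40, p = 0.0112, adjusted p = 0.0785), which fell to -0.31 (p = 0.0615) without the 2 farthest libraries and so rested in part on them, with within-group values between -0.74 and -0.32. Of the 9 thalamic transcripts, from 5 genes, 8 were negatively correlated with each of them. The vesicular glutamate transporter Slc17a6 had -0.55 with Bcl11b and -0.62 with Tbr1. The transcripts of Rora went opposite ways with Bcl11b, NM_001289916 at -0.58 and NM_013646 at 0.27. Bcl11b was also negatively related to the oligodendrocyte list (r = -0.50, permutation p = 0.00183, adjusted p = 0.0192; rho = -0.49, p = 0.00234), with -0.54 after the 2 farthest libraries were left out, values from -0.70 to -0.01 within groups and all 17 myelin transcripts below 0.

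Etv1 was negatively related to the interneuron list (r = -0.41, permutation p = 0.00425, adjusted p = 0.0382; rho = -0.59, p = 3e-05), with -0.44 after the 2 farthest libraries were left out and between -0.74 and -0.36 within groups. The transcripts of Reln, an extracellular glycoprotein of layer I and other interneurons, pulled in opposite directions, with NM_001310464 at -0.48 and NM_011261 at 0.69. The other 5 transcripts of the list lay between -0.18 and -0.03, and the list without Reln gave -0.19. Reln NM_001310464 was itself listed at 0 in 1 library and ranged up to 2103 normalised counts, so the relation with this list turned on the transcripts of 1 gene.

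Cux1, Cux2 and Tle4 had no adjusted p under 0.05 with any list, by r or by rho. The values nearest to it by r were -0.35 for Cux1 with astrocytes (permutation p = 0.045, adjusted p = 0.218), 0.30 for Cux2 with astrocytes (p = 0.0799, adjusted p = 0.292) and 0.27 for Tle4 with hippocampus (p = 0.0948, adjusted p = 0.299). Without the libraries that list Cux2 at 0, Cux2 with astrocytes was at -0.07 (permutation p = 0.708), so its sign turned on those libraries. The nearest by rho were -0.38 for Cux1 with astrocytes (adjusted permutation p = 0.134), -0.27 for Cux2 with hippocampus (0.227) and 0.32 for Tle4 with microglia (0.231). With the hippocampus, microglia and choroid plexus lists, no member had an adjusted p under 0.05 by r or by rho.

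**Figure D5:**
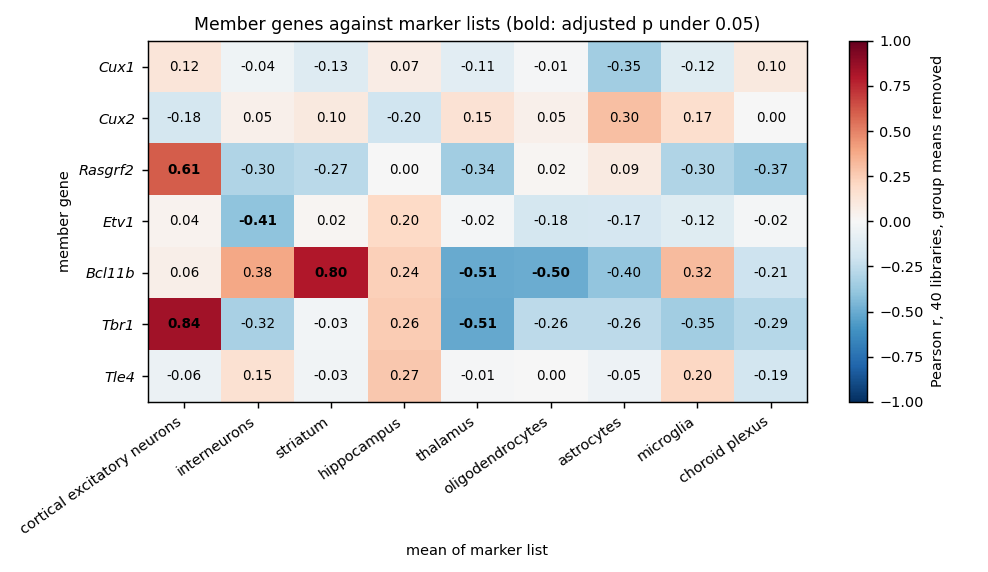
Pearson r over 40 libraries, group means removed, of each member gene (rows) with the mean of each marker list (columns), from -1 in blue to 1 in red, with the 7 values at an adjusted permutation p of r under 0.05 in bold. Tbr1 and Rasgrf2 carry their highest values in the cortical excitatory column and Bcl11b in the striatal column.

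The 3 transcripts of other genes most like each member were named by the highest r over the same 40 libraries, as a description. For Tbr1 they included Nptx1 (neuronal pentraxin 1, 0.89) and Inka2 (0.87). For Bcl11b they were Dgkb (diacylglycerol kinase beta, 0.84), Ppp1r1b (0.79) and Penk (0.78). Those of Rasgrf2 were Igfn1 (0.77), the kinase Nuak1 (0.69) and Srgap3 (0.68). The remaining members had lower values. For Etv1 the partners were Reln NM_011261 (0.69), Calu (0.58) and Tmem18 (0.54), for Cux1 Zc3h14 (0.56), Spock1 (0.50) and Hnrnpc (0.49), and for Tle4 Poldip2 (0.52), Smap1 (0.50) and Hip1r (0.48). For Cux2 they were Ttpal (0.60), Eapp (0.60) and Exoc8 (0.59), and without the 6 libraries that list a member at 0 these values were 0.26, 0.03 and 0.36, so they rested on the libraries at 0.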

How the data were processed

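Total RNA from dissected cortex was sequenced in 40 libraries. The labels gave 4 groups of 10. According to the study's methods the authors aligned reads to mm10 with STAR, estimated transcript counts with eXpress and applied the variance stabilising transformation of DESeq2, while the submitters' processing notes name HISAT2 and StringTie. The authors deposited values on a log2 scale, which were inverted from the value of a count of 0 (10.4), and all values under 5000 normalised counts came out as whole reads within 0.1 read.

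The 7 genes, the marker lists and the other layer genes were chosen with earlier results of these data known. Symbols came from RefSeq, which named 99.6% of transcripts. The deposited log2 values of every transcript were fitted with limma 3.58.1 (R 4.3.3, trend, 1 term per group), and so was log2(summed normalised count + 1) per gene, because reads are divided between transcripts. Calls used an unadjusted p under 0.05 and a Benjamini-Hochberg p under 0.1 over all features, two-sided. The deposited scale understates the change of low counts. Correlations used 100000 two-sided permutations within groups, adjusted over 21 pairs of genes and 63 gene and list pairs. Both procedures were tested on simulated data. The text names every member transcript, the 3 transcripts of other genes most like each member, up to 5 other layer genes per comparison by p, and the 2 genes with the highest counts in each marker list. Some genes that this rule picks are not reported here. Alternatives covered scaling, weights, covariates, the replicate number, filters and left-out libraries. Sequences were read from GENCODE M21 transcripts (GRCm38).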

Additional observations from a re-analysis of the deposited data

Results flagged for a closer look

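The effect of impact on Bcl11b NM_021399 differed between the drug arms by a log2 value of 0.18 on the deposited scale (memantine minus saline, SE 0.07, unadjusted limma p = 0.0185), with an adjusted p over all transcripts of 0.999. The difference kept its sign and its unadjusted p under 0.05 in all 40 fits that left out 1 library and in the 9 other fits that could be made. The striatal list had a median interaction of 0.09 with 0 of 15 transcripts under 0.05, beside 3.73% of all transcripts. With the mean of the striatal markers as a covariate the interaction of NM_021399 was 0.14 (p = 0.0444). Within the groups of 10, a search for libraries standing far from the rest of their group in the 9 transcripts and the summed Cux1 and Bcl11b found 0 in 44 groups, where chance flags about 1 in 20. The search used the gap between the extreme library and the next one, so libraries tied at an extreme hid each other. For Cux2 in saline sham, where replicates 4 and 9 were both listed at 0, this gap was 0.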

How the results depend on the processing

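Member counts changed as follows. In saline HF-HI versus saline sham the striatal covariate left 0 transcripts and 0 genes, the replicate block left 0 genes, a fit of only the 2 groups gave 2 genes (Rasgrf2 joined at p = 0.0488), and 0 genes remained without the libraries that list a member at 0, a choice made after the data were seen. In memantine HF-HI versus saline HF-HI the striatal covariate gave 2 transcripts and library weights gave 1 gene (Bcl11b). With 1 library left out, gene counts ran from 0 to 1 in these comparisons and in memantine sham versus saline sham, where transcripts also ran from 0 to 1. Transcripts ran from 1 to 2 for memantine HF-HI versus saline HF-HI, with 2 without saline HF-HI replicate 5, and its gene count was 1 without saline HF-HI replicate 1 or memantine HF-HI replicates 1 or 2. The causes were not tested. Other counts of members stayed within 1.5 times. Replicate numbers did not pair the libraries: same-numbered deviations correlated at a mean of 0.00 over 60 pairs (4 above 0.1), and 3 of 40 libraries matched their own number best. Under the replicate block summed Bcl11b kept -0.16 (p = 0.0589).

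Of the 21 member pairs, 0 had an adjusted p under 0.05 with the 2 farthest libraries left out, with libraries centred on their medians, in any group alone, or without the libraries listing Cux2 or any member at 0. Rasgrf2 with Tbr1 reversed in saline sham alone (r = -0.20). Of the 63 list pairs, 0 passed in saline sham alone, 0 for saline HF-HI, 1 for memantine sham and 2 for memantine HF-HI, with 10 libraries each. For single values, settings other than left-out libraries kept the direction and the call in 113 cases and the direction alone in 19. A like count of list pairs can hold other pairs. With the 2 farthest libraries left out, Tbr1 with thalamus was -0.31 (p = 0.0615) and Rasgrf2 with striatum -0.47 (p = 0.00444, against -0.27, p = 0.12, in all libraries). On deposited values averaged over transcripts, Bcl11b was at -0.26 with oligodendrocytes (p = 0.134) and -0.39 with thalamus (p = 0.0181), and Tbr1 with interneurons at -0.52 (p = 0.00107). Counting error was small beside the spread of every member, and values at 0 limited Cux1 and Cux2.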

Other observations

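Across the whole table, transcripts of genes with several curated RefSeq transcripts were less steady than those of genes with 1. The median coefficient of variation within groups was 13.9% over 3939 transcripts of the first kind and 5.97% over 2866 of the second. Among the members, Rasgrf2 and Tbr1 are of the second kind, with 6.22% and 12.4%, and the transcripts of Bcl11b, Etv1 and Tle4 are of the first, with 15.7% to 40.8%. Cux1 and Cux2 are also of the first kind. Cux1 NM_001291233, which has no value at 0, had 44.4%. With their values at 0 included, Cux1 NM_001291234 had 44.9% and Cux2 45.2%. No explanation of this difference in steadiness was tested.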
